A study of Mus musculus with 30 samples.

Results

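The 29 lysosomal genes described here encode hydrolases of the lysosome, proteins of its membrane, cholesterol carriers and subunits of its proton pump. They were taken as a list of gene symbols, and each was read from the array's transcript cluster (the probes of 1 transcription unit) that carries this symbol alone. All 29 matched, with 1 cluster each, of 19935 genes that have such a cluster and 23385 tested clusters in all. None was dropped for low signal, and averaged over the 30 arrays they lay between the 58.3 and 96.9 percentile of the tested clusters.

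Lysosomes are acidic organelles that break down proteins, glycans and lipids delivered by endocytosis and autophagy. Their hydrolases are made in the endoplasmic reticulum, mostly tagged with mannose 6-phosphate for sorting, and work at the low pH kept by the vacuolar proton pump (V-ATPase). Transcription factors of the TFEB family, held in the cytoplasm by mTORC1 when nutrients are plentiful, are known to activate many lysosomal genes through a short promoter motif that contains CACGTG. In embryonic stem cells, lysosomes and these factors have been linked to the balance between self-renewal and differentiation.

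The arrays measured total RNA of NgR, 1 mouse embryonic stem cell clone in which Nanog, a pluripotency transcription factor, is supplied from a doxycycline-controlled rescue construct. The clone was made in the rtTA-expressing line written Aniv15 or AINV15 in the labels, carries the genotype AINV15_Nanog_Rescue in every group, and was grown on primary mouse embryonic fibroblasts. The groups were day 0 with doxycycline at 1 ug/ml, days 1, 3 and 5 after its withdrawal, and from each of these 3 days 12 h more either pulsed with doxycycline or, as the time-matched control, left without it. That makes 10 groups of 3 arrays. Time in culture and withdrawal cannot be told apart, since every withdrawn group is also later than day 0, and the drug's own effect cannot be told apart from that of Nanog.

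Values are log2 signals deposited by the authors, and a change is a log2 difference of group means with its standard error (SE) from 3 arrays against 3. Calls were made by limma where the p adjusted over all 23385 clusters was under 0.05. Nanog was at or above 10.70 on each array with doxycycline and at or below 10.57 on each array without it. The interquartile range of an array's values was 2.43 to 2.71 on 26 arrays and 2.77 to 2.95 on the 4 widest, all of them controls without a pulse (replicates 2 and 3 of day 5, replicate 2 of day 3 and replicate 3 of day 1). Counts of members that rest on these controls, and the averages over the 3 pulses, are given with and without those arrays. The stem cell markers Pou5f1 and Sox2 lay at the 96.5 and 96.7 percentile of signal. In bulk RNA, fewer cells of a type and less RNA per cell cannot be told apart.

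Promoters of some members are shown first, because values of members with and without the motif of the TFEB family are set side by side below. Sequences are from RefSeq, build GRCm38.p6, and give the 100 bases before an annotated start, 5′ to 3′ on the gene's strand, with CACGTG in capitals. Lamp1 (chr8:13159061-13159160, plus strand), which encodes an abundant glycoprotein of the lysosomal membrane, holds 4 copies. Mcoln1 (chr8:3500419-3500518, plus strand), a calcium channel of that membrane, holds 2.
Lamp1: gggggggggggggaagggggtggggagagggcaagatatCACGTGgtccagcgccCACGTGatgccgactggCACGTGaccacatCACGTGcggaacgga
Mcoln1: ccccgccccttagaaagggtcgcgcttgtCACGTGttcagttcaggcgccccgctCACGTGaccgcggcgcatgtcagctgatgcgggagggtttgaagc
Within these 100 bases, single copies stand before the protease cathepsin D gene Ctsd (chr7:142387828-142387927, minus strand) and the heparan sulfate glucosaminidase gene Naglu (chr11:101069994-101070093, plus strand).
Ctsd: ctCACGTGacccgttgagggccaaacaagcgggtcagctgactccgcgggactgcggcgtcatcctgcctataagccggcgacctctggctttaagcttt
Naglu: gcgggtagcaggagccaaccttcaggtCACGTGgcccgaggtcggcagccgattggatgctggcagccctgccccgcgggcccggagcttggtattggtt
Lamp2 (chrX:38456461-38456560, minus strand), a membrane protein needed for autophagy, Lipa (chr19:34527475-34527574, minus strand), the lysosomal acid lipase, and Hexa (chr9:59539440-59539539, plus strand), a subunit of hexosaminidase, hold none. These 3 are shown because 2 of them had the largest rises of the list and Hexa had the largest step between neighbouring withdrawal days.
Lamp2: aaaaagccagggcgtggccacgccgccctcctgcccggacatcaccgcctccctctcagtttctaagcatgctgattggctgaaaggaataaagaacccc
Lipa: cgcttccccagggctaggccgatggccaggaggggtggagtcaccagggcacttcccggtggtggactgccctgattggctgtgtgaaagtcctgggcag
Hexa: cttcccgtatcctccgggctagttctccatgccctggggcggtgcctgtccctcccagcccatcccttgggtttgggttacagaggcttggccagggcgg

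A window of 250 bases before to 50 after the start was found for 24 of the 29 members (Asah1, Atp6v1h, Ctsb, Galns and Npc1 had none in the table). CACGTG, which reads the same on both strands, stood in the window of 10 of them (41.7%), against 8.09% of the 27025 genes in the table. In this longer window Lamp1 held 4 copies, Mcoln1, Ctsd and the carboxypeptidase gene Ctsa held 2 each, and the other 6 held 1. In the other lists described below CACGTG stood in 4 of 8 genes of mannose 6-phosphate sorting (50%), 5 of 19 of the TFEB family and mTORC1 (26.3%), 6 of 24 other acid hydrolases (25%), 2 of 9 other V-ATPase subunits (22.2%), 3 of 16 autophagy genes (18.8%), 3 of 17 other membrane proteins (17.6%) and none of 8 housekeeping genes. TCACGTG on either strand, which contains that motif, stood in 9 members (37.5%) and 4.29% of all genes. The longer palindrome that has GT before CACGTG and AC after it stood in none of the 24 members and in 0.37% of all genes. A match is a string of letters in this window, not a measured binding site.

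Withdrawal of doxycycline was followed by higher signal of most lysosomal genes by day 5 and of few at day 1. At day 5 against day 0, 21 of the 29 were called higher and 2 lower, where 23.8% of all clusters were called higher and 18.8% lower. The median change of the members was 0.56, against -0.01 over all clusters. At day 3, 16 were higher (19.6% of all clusters) and 2 lower (14.3%), with a median of 0.25 against 0.02. At day 1, 2 were higher (3.49% of all clusters) and 3 lower (3.02%), with a median of -0.01 against 0.02. Of these 5, Gusb and Ppt1 were not called with arrays centred on their median, and these and Gaa were not called in a fit of the compared groups alone. None of the 4 widest arrays belongs to these groups, and without them the counts were again 5, 18 and 23 at days 1, 3 and 5. Between withdrawal days, 15 rose and 1 fell at day 3 against day 1 (13.2% and 9.77% of clusters), and 14 rose and 1 fell at day 5 against day 3 (7.59% and 4.75%).

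**Figure D1:**
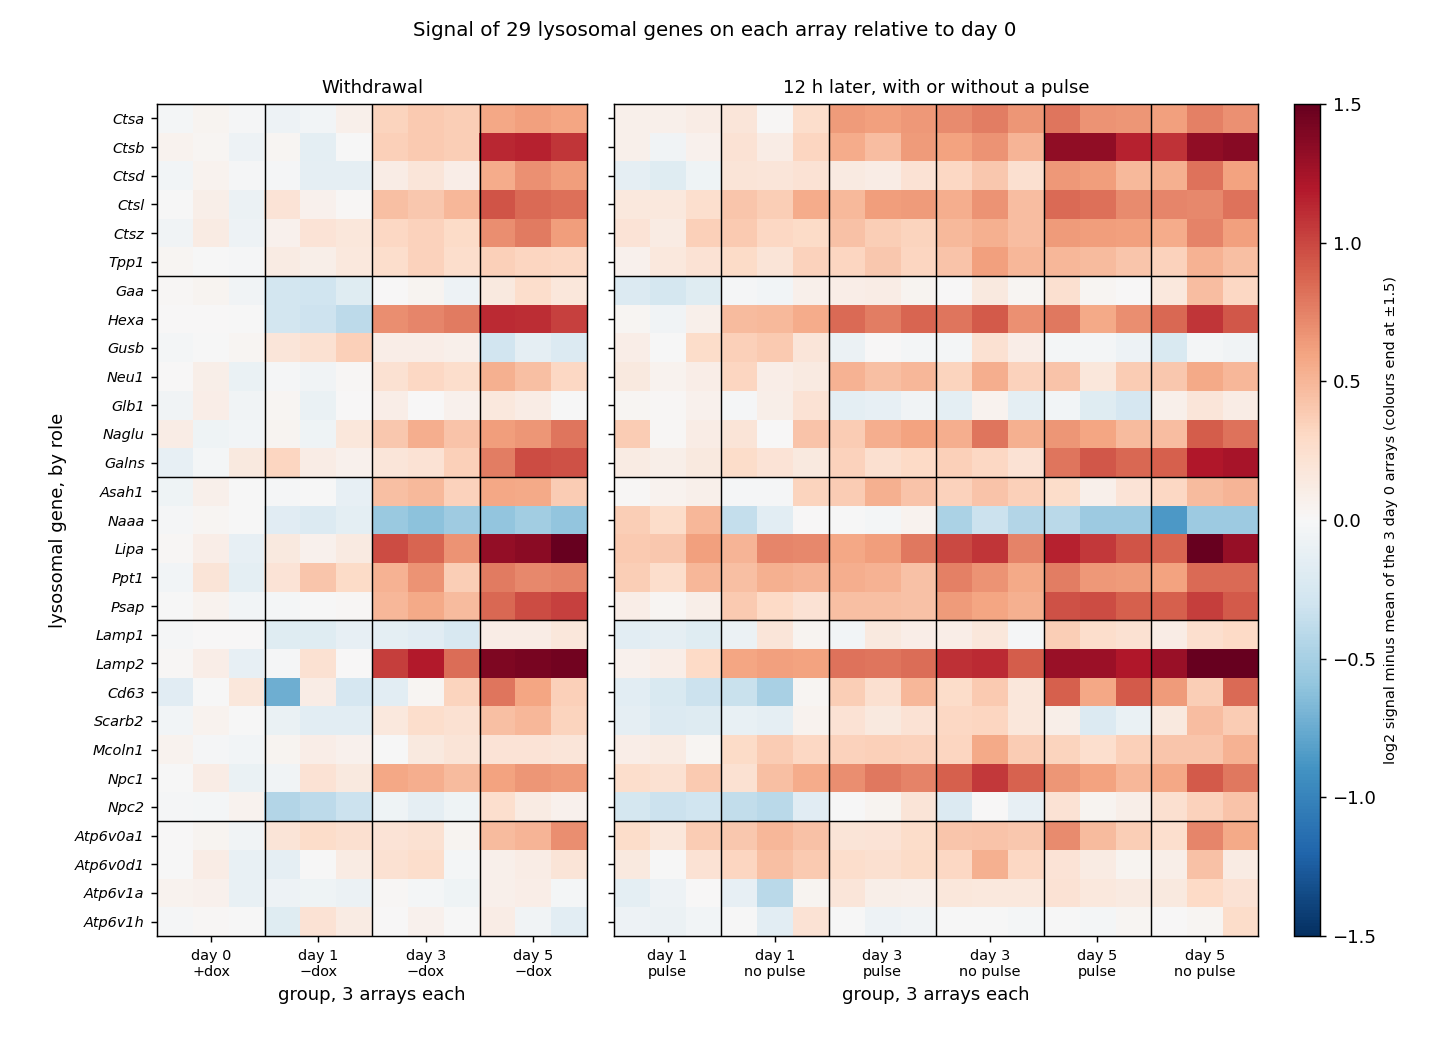
Log2 signal of each of the 29 lysosomal genes (rows, grouped by role) on each array (columns, 3 per group), minus the gene's mean over the 3 day 0 arrays. The left panel holds the withdrawal series and the right panel the groups 12 h later with or without a pulse. Most rows redden towards day 5, and the Naaa row turns blue.

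All 6 proteases were called higher at day 5 (23.8% of all clusters), with changes of 0.33 to 1.12. Cathepsin B (Ctsb), a cysteine protease, had 9.43, 9.40 and 9.29 at day 0, 9.40, 9.22 and 9.36 at day 1, 9.73, 9.77 and 9.75 at day 3, and 10.50, 10.53 and 10.45 at day 5. Its arrays overlapped between day 0 and day 1 and were apart at every later step. It rose by 1.12 ± 0.079 at day 5 (adjusted p = 7.65e-12), and 0.74 of this came between day 3 and day 5. Cathepsin L (Ctsl), also a cysteine protease, had 10.92, 10.83 and 10.80 at day 5, against 9.98, 10.06 and 9.90 at day 0, and rose by 0.87 ± 0.071. The aspartic protease cathepsin D (Ctsd) rose by 0.62 ± 0.070 at day 5 but was not called at day 3. The carboxypeptidases Ctsz (0.70) and Ctsa (0.60, which also shields other glycosidases) and the tripeptidyl peptidase Tpp1 (0.33) rose too, each with day 5 arrays above all day 0 arrays. No protease was called at day 1, when their changes ran from -0.10 to 0.15.

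Of the 7 glycan enzymes, 5 rose and 1 fell at day 5 (23.8% and 18.8% of all clusters). Hexa, which degrades GM2 ganglioside, had 9.85, 9.86 and 9.84 at day 0, 9.57, 9.55 and 9.46 at day 1, 10.55, 10.58 and 10.62 at day 3, and 10.97, 10.96 and 10.87 at day 5. No array of one day overlapped with one of another. It fell by 0.32 on the log2 scale at day 1 (SE 0.069, adjusted p = 0.00337), then stood 1.06 ± 0.069 above day 1 at day 3, and at day 5 was 1.08 ± 0.069 above day 0 (adjusted p = 1.16e-12). The keratan sulfate sulfatase Galns had 8.42, 8.62 and 8.60 at day 5, against 7.53, 7.61 and 7.79 at day 0. It rose by 0.90 ± 0.088, with 0.65 of that after day 3. Naglu rose by 0.70 ± 0.114 and the sialidase Neu1 by 0.43 ± 0.078. The acid glucosidase of glycogen breakdown, Gaa, was lower at day 1 by -0.25 ± 0.073 and higher at day 5 by 0.19 ± 0.073 (adjusted p = 0.0362 and 0.0329). The β-galactosidase Glb1 was not called on any withdrawal day, with 0.09 at day 5 and a 95% interval of -0.06 to 0.24.

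The β-glucuronidase gene Gusb moved the other way in time. It had 8.33, 8.35 and 8.39 at day 0, 8.54, 8.59 and 8.72 at day 1, 8.45, 8.46 and 8.43 at day 3, and 8.07, 8.22 and 8.15 at day 5. Day 1 arrays lay above and day 5 arrays below all day 0 arrays. The changes were 0.26 ± 0.077 at day 1 (adjusted p = 0.042) and -0.21 ± 0.077 at day 5 (adjusted p = 0.0304).

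Among the 5 genes of lipid and fatty amide breakdown, 4 rose at day 5 and 1 fell (23.8% and 18.8% of all clusters). Lipa, which frees cholesterol and fatty acids from lipoprotein lipids, had 7.50, 7.58 and 7.36 at day 0, 7.62, 7.54 and 7.62 at day 1, 8.46, 8.34 and 8.15 at day 3, and 8.80, 8.83 and 9.01 at day 5. Its rise of 1.40 ± 0.119 at day 5 (adjusted p = 2.34e-10) was 2.64-fold. Psap, the precursor of the saposins that present sphingolipids to hydrolases, had 12.39, 12.50 and 12.55 at day 5, against 11.52, 11.57 and 11.48 at day 0. It rose by 0.96 ± 0.059. The thioesterase Ppt1 was called higher on all 3 days, by 0.30, 0.52 and 0.75, and the acid ceramidase Asah1 at day 3 and day 5, by 0.43 and 0.51.

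Naaa, an acid amidase of N-acylethanolamines, was the one member called lower at both day 3 and day 5. It had 8.48, 8.53 and 8.49 at day 0, 8.32, 8.29 and 8.35 at day 1, 7.94, 7.88 and 7.96 at day 3, and 7.90, 7.98 and 7.91 at day 5. All 9 withdrawn arrays lay below all 3 day 0 arrays. The change was -0.57 ± 0.083 at day 5 (adjusted p = 2.53e-06), and was -0.57 ± 0.083 at day 3 as well.

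In the membrane and cholesterol group, 5 of 7 rose at day 5 and none fell (23.8% and 18.8% of all clusters). Lamp2 had 8.80, 8.87 and 8.66 at day 0, 8.76, 9.01 and 8.79 at day 1, 9.81, 9.96 and 9.62 at day 3, and 10.18, 10.20 and 10.22 at day 5. Its rise of 1.43 ± 0.087 at day 5 was 2.69-fold (adjusted p = 5.51e-13), and 0.95 of it lay between day 1 and day 3. Its relative Lamp1 had 10.91, 10.91 and 10.96 at day 5, against 10.78, 10.80 and 10.80 at day 0. The difference of 0.13 ± 0.070 was not called (adjusted p = 0.135), although the arrays did not overlap, which held in the higher direction for 29% of all clusters. At day 3 Lamp1 was lower by -0.19 ± 0.070 (adjusted p = 0.04). Quantile normalization and a fit of the compared groups alone did not call Lamp1 at day 3.

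The cholesterol exporter Npc1 rose by 0.63 ± 0.089 at day 5. Its luminal partner Npc2 had 9.75, 9.80 and 9.87 at day 1, against 10.17, 10.16 and 10.24 at day 0, and was lower by -0.38 ± 0.075 (adjusted p = 0.00139). By day 5 Npc2 stood 0.15 above day 0, which was not called. The tetraspanin Cd63 (0.59 ± 0.168), the glucocerebrosidase receptor Scarb2 (0.43 ± 0.079) and Mcoln1 (0.20 ± 0.064) rose at day 5, and Cd63 had the largest SE of the 3. Mcoln1, like Gaa, lost its day 5 call with arrays centred on their median and under quantile normalization.

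The V-ATPase subunits had the lowest median change at day 5 of the 5 role groups, 0.09, against 0.43 to 0.75 in the other 4. Of the 4 in the list, Atp6v0a1, a subunit of the membrane sector, was called higher at day 5, by 0.56 ± 0.094. It had 8.86, 8.89 and 9.08 at day 5, against 8.39, 8.42 and 8.33 at day 0. The differences of Atp6v0d1, also of the membrane sector, and of Atp6v1a and Atp6v1h of the catalytic sector were 0.13, 0.05 and -0.03, with 95% intervals of -0.06 to 0.32, -0.11 to 0.21 and -0.22 to 0.16. Their day 5 arrays overlapped with those of day 0.

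**Figure D2:**
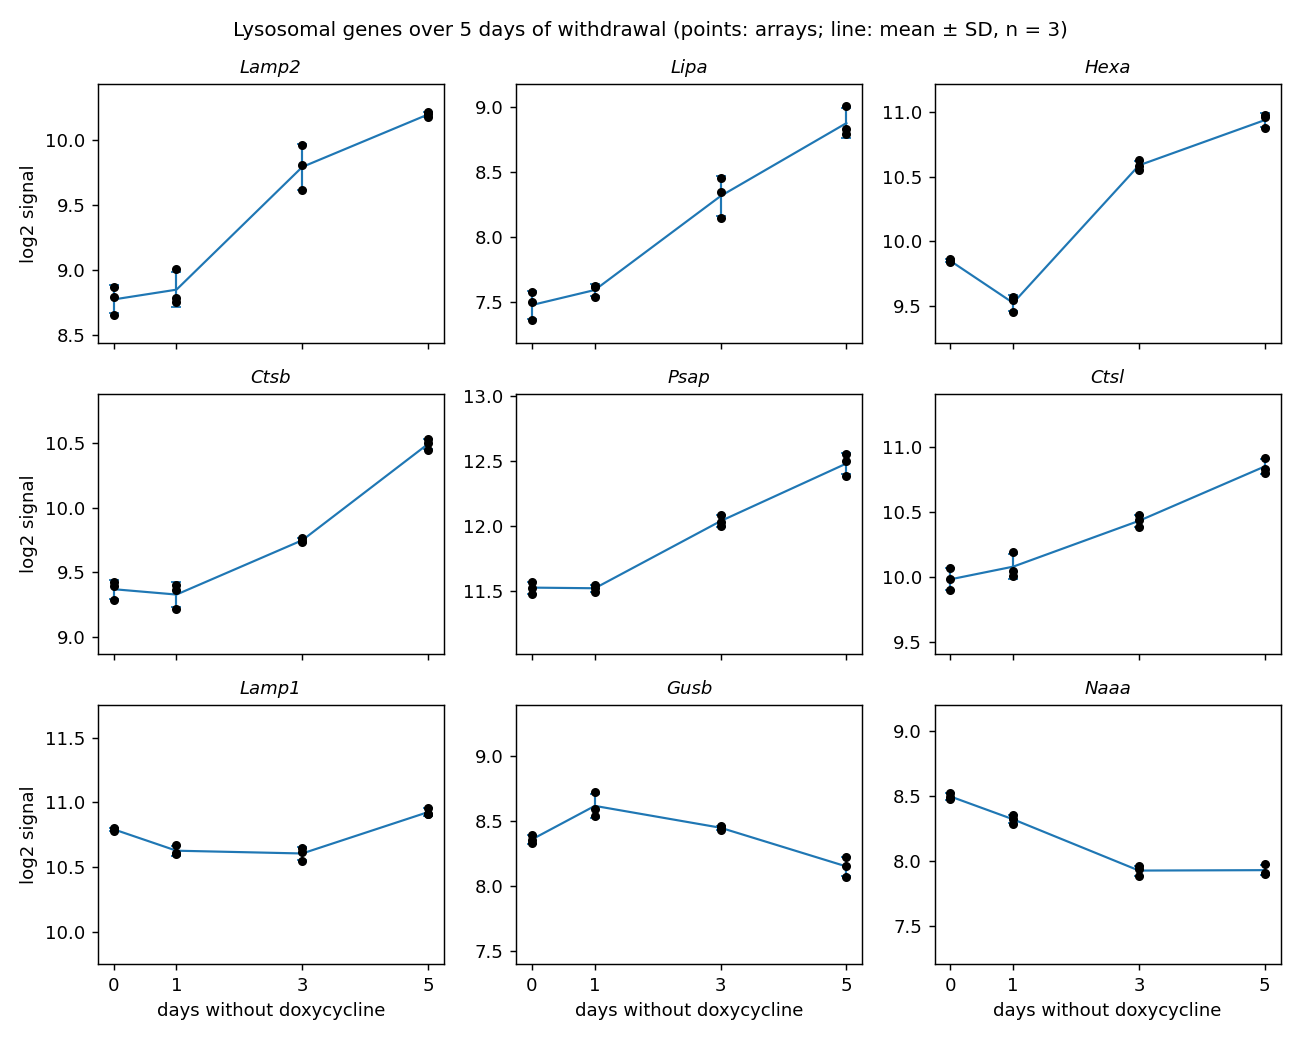
Log2 signal of 9 lysosomal genes on each array (points) at days 0, 1, 3 and 5 without doxycycline, with the mean and SD of 3 arrays as a line; each panel spans 2 log2 units. Lamp2 and Lipa end 1.43 and 1.40 above day 0, Lamp1 ends 0.13 above it, and Naaa and Gusb end 0.57 and 0.21 below it.

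Other lysosomal genes of the same classes were read beside the list. Of 30 other acid hydrolases and activators, 17 were called higher and 1 lower at day 5. Of 19 other membrane proteins and transporters, 13 were higher and none lower, where 23.8% of all clusters were higher and 18.8% lower. Their median changes were 0.35 and 0.38. The largest rises were those of Gm2a, the GM2 activator (1.57 ± 0.089), the acetyltransferase Hgsnat (1.42 ± 0.090), legumain Lgmn (1.16 ± 0.084) and cathepsin C Ctsc (1.11 ± 0.120) among the enzymes. Among the membrane proteins they were those of the sialic acid transporter Slc17a5 (1.28 ± 0.102), the channel Mcoln3 (1.09 ± 0.080), Laptm4a (0.71) and the ion channel Tmem175 (0.69). At day 1 none of these 30 enzymes was called in limma, with 4 at an unadjusted p under 0.05, which 17.5% of all clusters had. Of the 19 membrane proteins, 1 was called lower, where 3.02% of all clusters were.

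Of 13 other V-ATPase subunits and accessory proteins, 5 were called higher at day 5 and none lower, with a median of 0.09. They included Atp6v0b (0.63), Atp6ap1 (0.53), Tcirg1 (0.47) and Atp6ap2 (0.45). Of 11 genes of mannose 6-phosphate tagging and sorting, 3 rose and 2 fell (27.3% and 18.2%), shares near the 23.8% and 18.8% of all clusters. The receptor genes Igf2r (1.27 ± 0.089) and Sort1 (0.61 ± 0.100) rose, while Gnptab, which encodes the tagging transferase, and Nagpa, which uncovers the tag, were lower by -0.48 ± 0.072 and -0.37 ± 0.082. Of 19 autophagy genes, 8 were higher, among them the LC3-family member Gabarapl1 (0.90), the cargo receptor Sqstm1 (0.73) and Wipi1 (0.63). Another 3 were lower, a share near the 18.8% of all clusters, among them Gabarapl2 (-0.59, read from 1 of its 2 clusters).

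Genes of the TFEB family and of mTORC1 signalling did not share the direction of the lysosomal genes. At day 5, 5 of 20 were called higher, a share near the 23.8% of all clusters. Another 8 were called lower, where 18.8% of all clusters were, and the median was -0.15. Tfeb itself had 8.50, 8.29 and 8.30 at day 0, 7.97, 7.88 and 7.94 at day 1, 7.59, 7.65 and 7.52 at day 3, and 7.83, 7.71 and 7.77 at day 5. All withdrawn arrays lay below all day 0 arrays. Tfeb changed by -0.44 ± 0.086 at day 1, -0.78 ± 0.086 at day 3 and -0.60 ± 0.086 at day 5 (adjusted p = 0.00147, 6.28e-08 and 1.98e-06). Tfe3 was higher at day 1 by 0.42 ± 0.090, stood at 0.15 at day 3 (adjusted p = 0.232), and was lower at day 5 by -0.25 ± 0.090. Mitf was lower at day 5 by -0.37 ± 0.087, and Tfec was not called on any day. Fnip1, a partner of folliculin, and Tsc1, an inhibitor of mTORC1, rose by 0.56 and 0.54, and Lamtor4, a subunit of the Ragulator that anchors mTORC1, changed by -0.54. Transcript levels do not measure where these factors are in the cell.

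**Figure D3:**
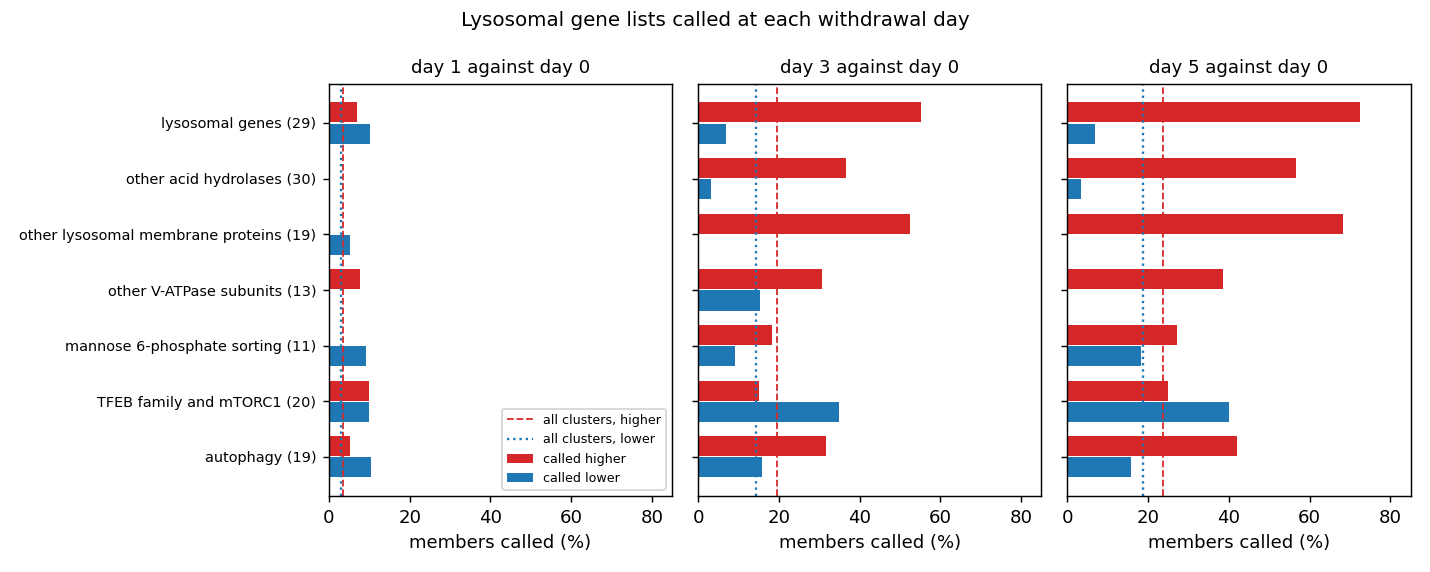
Share of each gene list called higher (red) or lower (blue) at days 1, 3 and 5 against day 0, with the number of genes in brackets; lines mark the shares over all 23385 clusters. At day 5 the 29 lysosomal genes reach 72.4% called higher, and the TFEB family and mTORC1 list is at 25% higher and 40% lower. The lines for all clusters at day 5 lie at 23.8% higher and 18.8% lower.

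Changes were also read by the promoter motif. At day 5 the 10 members with CACGTG in the window had a median change of 0.20, with 6 called higher and none lower. The 14 without it had a median of 0.57, with 11 higher and 2 lower. At day 3 of withdrawal the medians were 0.12 with it and 0.28 without it. In the 12 h without a pulse they were 0.23 and 0.19 after day 1, and 0.19 and 0.12 after day 3. For the pulse they were -0.21 and -0.13 after day 1, and -0.11 and -0.10 on average. The 12 h and pulse values include some of the 4 widest arrays. The 4 genes with more than 1 copy in the window were Lamp1, Mcoln1, Ctsd and Ctsa, with day 5 changes of 0.13, 0.20, 0.62 and 0.60. The motif was searched with results known, so these medians are a description.

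Housekeeping genes were no fixed point either. Of 9 such genes, 2 were called higher at day 5 and 3 lower, where 23.8% of all clusters were called higher and 18.8% lower. Among the 9 were B2m at 2.51 and Hprt at -1.16. Centring each array on its median shifted the median of all clusters at day 5 to -0.08. Then 21 of the 29 lysosomal genes were called in either direction, and Gaa and Mcoln1, called higher before, were lost.

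Markers of other cells moved as well, and their part in the lysosomal change was not tested. Of 16 fibroblast markers (the feeder cells), 11 were higher and 1 lower at day 5, where 23.8% of all clusters were higher and 18.8% lower. Their mean level over the list was 8.09 to 8.20 on day 5 arrays and 7.71 to 7.78 on day 0 arrays. The defining markers Col1a2 and Col1a1 rose by 1.00 and 0.26, and Thy1 changed by -0.49. The fibroblast level was lower on the 3 day 5 control arrays 12 h later (7.87 to 8.02). On these the mean level of the 29 lysosomal genes was 9.76 to 9.97, against 9.83 to 9.87 on the day 5 withdrawal arrays. Replicates 2 and 3 of this control, the 2 widest arrays of the series, had lysosomal levels of 9.97 and 9.94. Replicate 1 had a fibroblast level of 7.94 and a lysosomal level of 9.76, both below all day 5 withdrawal arrays. Of 10 macrophage markers, none was called in limma at day 5, and none had an unadjusted p under 0.05, which 48.8% of all clusters had. Their mean level was 6.23 to 6.32 at day 5 and 6.23 to 6.40 at day 0, and Ptprc, Csf1r and Adgre1 lay at the 18.1, 24.9 and 14.8 percentile of signal.

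Most differentiation markers read were called higher at day 5, and most stem cell markers lower. Over all clusters, 23.8% were called higher and 18.8% lower. Only calls in the named direction are counted here. Of 15 extraembryonic endoderm markers, 9 were higher, with a list level of 8.31 to 8.37 at day 5 and 7.82 to 7.84 at day 0, although the defining Gata4 (0.12) and Sox17 (-0.17) were not called. Of 13 trophectoderm markers, 9 were higher, with a level of 8.94 to 9.04 at day 5 and 7.80 to 7.83 at day 0, and the defining Cdx2 (0.37) and Elf5 (0.04) were not called. Of 12 stem cell markers, 10 were lower, at 10.60 to 10.73 against 11.49 to 11.55. The part of a changed mix of cells in the lysosomal values was not tested.

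Lysosomal genes also rose in the 12 h after day 1 without a pulse. Against the day 1 withdrawal group, 11 members were called higher and none lower in the control (5.02% and 1.23% of all clusters), with a median of 0.20. Hexa had 10.33, 10.34 and 10.40 in the control, against 9.57, 9.55 and 9.46 in the withdrawal group, and rose by 0.83 ± 0.069 (adjusted p = 4.42e-08). Lamp2 had 9.37, 9.39 and 9.38 in the control, against 8.76, 9.01 and 8.79, and rose by 0.53 ± 0.087. Lipa rose by 0.54 ± 0.119 and Atp6v0d1 by 0.40 ± 0.094, without overlap between the groups. Ctsl, Psap, Npc1, Ctsd, Mcoln1, Ctsb and Gaa rose by 0.26 to 0.35. Npc1, Ctsb and Gaa were not called without the 4 widest arrays, and Hexa was then at 0.81 ± 0.068 and Lamp2 at 0.53 ± 0.095.

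After day 3 the same 12 h moved 4 members higher and none lower (1.29% and 0.402% of clusters): Npc1 (0.42 ± 0.089), Ctsa (0.35 ± 0.062), Mcoln1 (0.31 ± 0.064) and Lamp1 (0.27 ± 0.070). After day 5 it moved Mcoln1 alone, by 0.26 ± 0.064 (2.32% of clusters were higher and 0.984% lower). Without the 4 widest arrays the counts were 8, 2 and 0 after days 1, 3 and 5, where 8.48%, 1.2% and 0.47% of all clusters were called. The 2 after day 3 were Ctsa and Npc1, while Mcoln1 and Lamp1 were at 0.24 and 0.23 (adjusted p = 0.0705 and 0.171). In a fit of the compared groups alone the counts were 3, 0 and 0, where 0.522%, 0.235% and 0.0812% of all clusters were called. The differences between the days in this step were not tested.

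**Figure D4:**
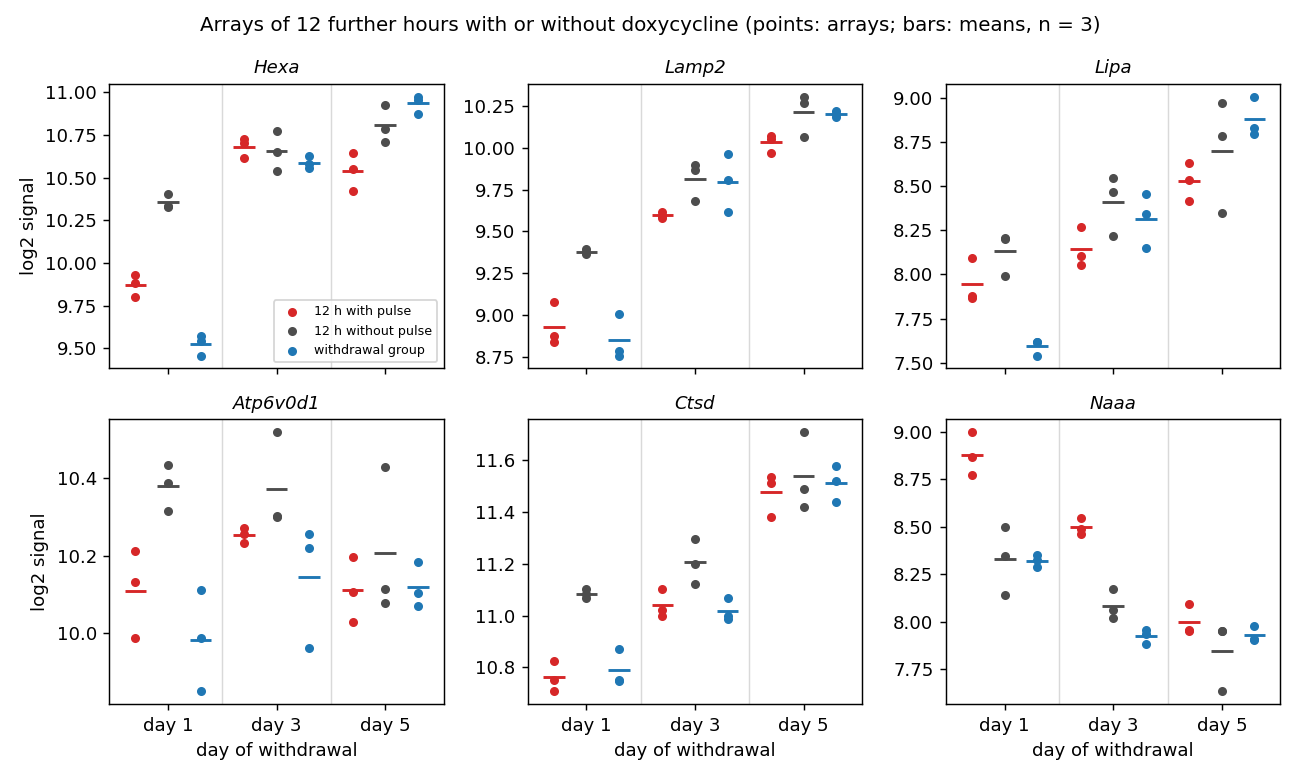
Log2 signal of 6 lysosomal genes on each array (points, with bars at the means of 3) after 12 h with a pulse (red), 12 h without a pulse (grey) and in the withdrawal group of the same day (blue). At day 1 Hexa averages 9.87 with the pulse and 10.36 without it, and Naaa averages 8.88 with the pulse and 8.33 without it.

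The pulse of doxycycline left several lysosomal genes lower than the time-matched control after day 1. The same control arrays enter the 12 h comparison above, so those rises and these falls are not independent. There, 6 members were called lower and 1 higher, where 3.2% of all clusters were called lower and 0.547% higher. Hexa had 9.88, 9.80 and 9.93 with the pulse, against 10.33, 10.34 and 10.40 in the control, and changed by -0.48 ± 0.069 (adjusted p = 0.000158). Lamp2 had 8.84, 8.87 and 9.08 with the pulse, against 9.37, 9.39 and 9.38 in the control, and changed by -0.45 ± 0.087 (adjusted p = 0.00374). For both genes the pulsed arrays lay below all control arrays. Ctsd (-0.32), Ctsl (-0.25), Mcoln1 (-0.24) and Psap (-0.23) were lower too. Without the 4 widest arrays 7 members were again called, with Ctsl lost and another gained. Of all clusters, 4.04% were then called lower and 1.97% higher. A fit of the compared groups alone called 1 member. Leaving out replicate 1 or 2 of the pulse group or replicate 2 of the control left 4, 3 and 4 calls.

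Naaa ran opposite to these genes under the pulse as well. After day 1 it had 8.87, 8.77 and 9.00 with the pulse, against 8.14, 8.34 and 8.50 in the control. It rose by 0.55 ± 0.083 (adjusted p = 0.000277), and its pulsed arrays also lay above the 3 day 0 arrays at 8.48 to 8.53. After day 3 it had 8.49, 8.46 and 8.55 with the pulse, against 8.02, 8.17 and 8.06 in the control, without overlap. The difference of 0.42 ± 0.083 missed the threshold with all arrays (adjusted p = 0.0551). It was called without the 4 widest arrays, at 0.46 ± 0.071 (adjusted p = 0.0172), and with the interquartile range as a covariate, at 0.48 ± 0.056 (adjusted p = 7.13e-05). Over the 10 alternatives other than leaving out a single array, the difference was 0.42 to 0.49, with adjusted p from 7.13e-05 to 0.166, and 6 of the 10 called it. After day 5 it had 8.09, 7.95 and 7.96 with the pulse, against 7.63, 7.95 and 7.95 in the control, and these overlapped.

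After day 3, no member was called in either direction in limma, with 8 (27.6%) at an unadjusted p under 0.05, where 0.0385% of all clusters were called and 14.6% had such a p. Naaa was the 1 member called without the 4 widest arrays, with the interquartile range as a covariate, under quantile normalization, with trend and robust variances and with the lowest 40% of clusters left out. Array weights called Naaa, Npc2 and Atp6v0a1. After day 5, 4 were called lower and none higher (7.1% and 5.13% of all clusters): Scarb2 (-0.40 ± 0.079), Glb1 (-0.28 ± 0.073), Hexa (-0.27 ± 0.069) and Gaa (-0.22 ± 0.073). Scarb2 had 9.76, 9.46 and 9.57 with the pulse, against 9.81, 10.13 and 10.05 in the control, without overlap. Without the 4 widest arrays, which leaves 1 control array of day 5, none of the 4 was called, and 11 of the 29 members had a negative difference, against 20 with all arrays. The share of all clusters called was then 0.235%. Leaving out 1 array gave 10 calls without replicate 1 of the control, and 1 call without its replicate 2 or 3 or without replicate 2 or 3 of the pulse group.

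No difference between the pulse effects of 2 days was called for any of the 29 members in limma, where 0.00855% of clusters were called for day 3 minus day 1, 0.111% for day 5 minus day 1 and 0.936% for day 5 minus day 3. At an unadjusted p under 0.05 there were 3, 11 and 9 members in that order (10.3%, 37.9% and 31%), where 6.59%, 12.6% and 16.2% of all clusters had such a p. None was called without the 4 widest arrays either. The largest was that of Hexa, 0.51 ± 0.098 for day 3 minus day 1 (adjusted p = 0.0758), and without the 4 widest arrays it was 0.55 ± 0.097 (adjusted p = 0.0567). So a pulse effect called on one day and not on another is not shown to differ between the days.

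Averaged over the 3 days, 11 members were called lower with the pulse and 1 higher, where 14% of all clusters were called lower and 6.8% higher. The members' median was -0.10 against 0.01 over all clusters, and 27 of 29 values were negative. The members' median was -0.04 without the 4 widest arrays, and -0.03 both with the interquartile range as a covariate and under quantile normalization. Lamp2 (-0.28 ± 0.050), Hexa (-0.24 ± 0.040), Lipa (-0.21 ± 0.069), Scarb2 (-0.20 ± 0.045) and Ctsd (-0.18 ± 0.040) had the largest falls, and Naaa rose by 0.37 ± 0.048 (adjusted p = 1.93e-05). Without the 4 widest arrays 2 were called, Hexa at -0.18 ± 0.043 and Naaa at 0.49 ± 0.045 (adjusted p = 0.0263 and 2.6e-06), and 21 of 29 were negative. Lamp2 was then at -0.22 ± 0.060 (adjusted p = 0.0568). The share of all clusters called was 2.12% without these arrays. Leaving out 1 array gave 7 calls without replicate 2 of the day 3 control, replicate 2 of the day 5 control or replicate 3 of the day 5 pulse group.

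Withdrawal and pulse comparisons share no arrays. Of the 21 members called higher at day 5 of withdrawal, 20 (95.2%) had a negative mean pulse effect and 9 (42.9%) were called lower. Over the 5558 clusters called higher at day 5 these shares were 84.2% and 39.4%. Without the 4 widest arrays the negative shares were 76.2% and 74.5%.

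**Figure D5:**
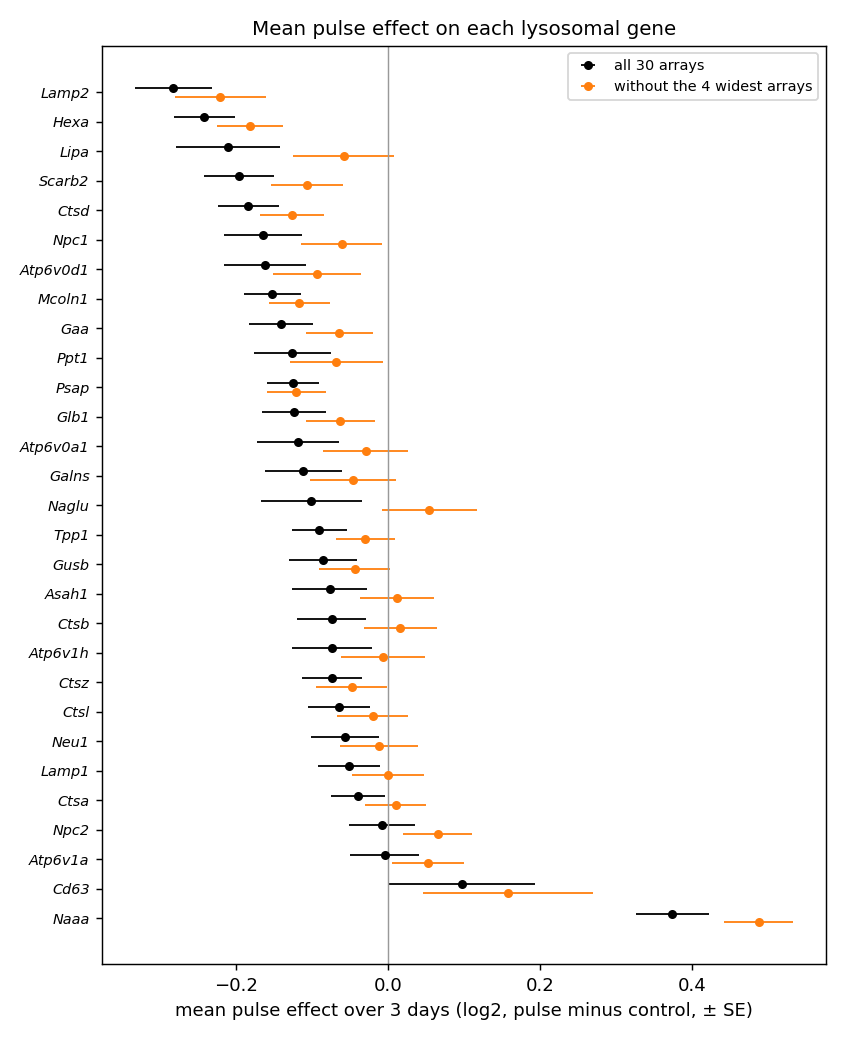
Mean pulse effect over days 1, 3 and 5 (log2, pulse minus time-matched control, ± SE) for each of the 29 lysosomal genes with all 30 arrays (black) and without the 4 widest arrays (orange). With all arrays 27 points lie left of 0, and without the widest 21 do; Naaa lies farthest right under both.

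Among related genes, the pulse average was lowest for Ctsc (-0.40) and Aga (-0.28) of the other hydrolases, of which 10 of 30 were called lower and none higher. Of the 30, 1 was called lower without the 4 widest arrays. In the other lists the named falls were those of Slc17a5 (-0.33) and Clcn7 (-0.20), Igf2r (-0.26) and Sort1 (-0.25), Atg14 (-0.31) and Uvrag (-0.26), Rragd (-0.29) and Tfe3 (-0.24), and Atp6v1f (-0.20) and Atp6v0b (-0.14). None of these 12 genes was called without the 4 widest arrays, where their values ran from -0.22 to -0.10 (adjusted p from 0.0543 to 0.47). Tfeb was higher with the pulse on average, by 0.16 ± 0.049 (adjusted p = 0.0289), and by 0.21 ± 0.045 without the 4 widest arrays (adjusted p = 0.0126). These counts stand beside 6.8% of all clusters called higher and 14% lower. Of the marker lists, 1 of 16 fibroblast markers was called higher and 3 lower on average (6.25% and 18.8%), and 1 of 10 macrophage markers was higher and none lower. None of 15 endoderm markers was higher and 3 were lower, and none of 13 trophectoderm markers was higher and 2 were lower. Of 12 stem cell markers, which include Nanog, 4 were higher and 3 lower (33.3% and 25%). With the 4 widest arrays left out, no fibroblast, macrophage or endoderm marker was called, 1 trophectoderm marker was higher and 1 lower, and 3 stem cell markers were higher and none lower, where 0.697% of all clusters were higher and 1.42% lower. The part of these markers in the pulse values was not tested.

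Across the 10 groups, most members followed a common course. The correlation of a member's 10 group means with the mean of the other 28 ran from 0.73 (Scarb2) to 0.98 (Naglu) in 24 members. It was 0.45 for Atp6v0d1, 0.13 for Atp6v1h, -0.03 for Glb1, -0.68 for Gusb and -0.75 for Naaa. The genes outside the lysosomal lists whose 10 group means ran closest to the members' mean were Ostf1 (Pearson 0.994), Csnk1g1 (0.992), Hpn (0.992), Mogat2 (0.990), Stxbp5 (0.989) and Ptpn21 (0.988). The 10 points share arrays across genes, so these are descriptions. How many other genes correlate as closely was not counted, so the common course is not shown to be particular to the list.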

How the data were processed

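Total RNA was measured on Affymetrix gene arrays. The authors deposited log2 signals per transcript cluster; per the submitters' processing notes they used RMA and Affymetrix Expression Console, with no version given. RMA equalizes the probe distributions of the arrays and tends to compress fold changes. Of 28815 clusters, 21780 had 1 gene symbol, 1605 several and 5430 none in the platform annotation; those with a symbol were tested, 238 of them repeating another's values (no member among them). Arrays have no depth, and 3 per group limit the precision.

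One mean per group was fitted over all 30 arrays with limma 3.58.1 in R 4.3.3, with Benjamini-Hochberg adjustment over all 23385 clusters per comparison. The labels do not say that replicates were separate cultures, so p-values may measure technical spread. On data simulated for day 5 against day 0, over 23385 clusters, 73% of changes of 0.5 and 99% of changes of 1 (log2) were recovered, with 9 false calls. There 100 clusters changed by each size, and the noise was independent between clusters, with no wider arrays. In the data 23.8% of clusters were called higher and 18.8% lower at day 5, so the simulation checks the fit and does not give its recovery or false calls here.

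The members and all lists were chosen with earlier results of these data known. Named genes are every member, the TFEB family, up to 4 called genes with the largest day 5 change and up to 2 with the largest mean pulse effect per other list, and the 6 genes closest in course to the members. Promoters came from RefSeq. Alternatives were trend and robust variances, array weights, median centring, quantile normalization, clusters without a symbol included, the lowest 40% of clusters left out, compared groups alone, the interquartile range as a covariate, the 4 widest arrays left out, a replicate block and each array left out. Leaving out the widest arrays was extended to the other lists and to differences between pulse effects after the data were seen.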

Additional observations from a re-analysis of the deposited data

How the results depend on the processing

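The counts of lysosomal genes called at day 3 and day 5 of withdrawal and in both steps between withdrawal days stayed within 1.5 times the reported count under every alternative. The day 1 withdrawal count of 5 was 3 with arrays centred on their median and 2 in a fit of the compared groups alone. The pulse counts depended most on the setting. Without the 4 widest arrays, 1, 0 and 2 members were called for the pulse at day 3, at day 5 and on average, and 2 and 0 for the 12 h without a pulse after days 3 and 5. With the interquartile range as a covariate these 5 counts were 1, 1, 3, 5 and 2. The shares of all clusters called were then 0.287%, 2.3%, 3.6%, 3.59% and 5.46% in that order. Both day 5 counts lay near these shares. Quantile normalization gave 1, 2 and 6 for the pulse at day 3, at day 5 and on average, and 0 for the 12 h after day 5. Array weights gave 14, 3 and 12 for the pulse at days 1, 3 and 5, and 3 for the 12 h after day 5. Compared groups alone gave 1, 0 and 7 for the pulse at day 1, at day 5 and on average, and 3, 0 and 0 for the 12 h after days 1, 3 and 5. Leaving out the lowest 40% of clusters gave 1 and 7 for the pulse at days 3 and 5, trend and robust variances gave 1 at day 3, and centring gave 7 for the 12 h after day 1. Fewer arrays or fewer clusters entered some of these fits, and otherwise the cause was not tested. A count without the share of all clusters under the same setting does not set the members apart from other clusters.

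With each array left out in turn, the withdrawal counts ranged from 2 to 4, 15 to 17 and 20 to 22 at days 1, 3 and 5, and the steps from 14 to 17 and 12 to 15. The pulse counts ranged from 3 to 6 at day 1, stayed at 0 at day 3 and ranged from 1 to 10 at day 5, and from 7 to 16 on average, and the 12 h counts from 6 to 10, 1 to 4 and 0 to 2. The day 1 withdrawal count fell to 2 or 3 without any 1 of the day 0 arrays or without replicate 2 or 3 of day 1. The 12 h count after day 1 was 6 without replicate 1 of the withdrawal group and 7 without its replicate 3 or replicate 2 of the control. After day 3 it was 2 without replicate 1 or 3 of the withdrawal group and 1 without replicate 2 of the control. After day 5 it was 0 without replicate 2 or 3 of the withdrawal group or replicate 3 of the control, and 2 without replicate 1 of the control. Of 2000 recalculations of the 116 called member values, 276 lost the call and none changed sign.

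Replicate numbers did not pair the arrays: correlations of same-numbered deviations ran from -0.72 to 0.35. With the replicate block, 5, 18 and 23 members were called at days 1, 3 and 5, 6, 0 and 3 for the 3 pulses and 12 on average. No alternative cluster per gene was run, since each member had 1. Arrays limit precision by their number, and near-threshold members (Gaa, Mcoln1) were lost at day 5 under centring and under quantile normalization.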
